A study of Homo sapiens with 14 samples.

Results

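The genes described here are the long noncoding RNA (lncRNA) genes detected in xenograft tumours of UMUC3, a human bladder cancer line. They were chosen by annotation and level: genes with at least 1 transcript annotated as lncRNA, none annotated as protein coding, and a mean of at least 1 count per 1000000 (CPM) over all 14 libraries. MALAT1, NEAT1 and TARID were left out by name. This gave 2808 of the 62749 genes in the files and 2808 of 19268 lncRNA genes. Of the members, 1369 have a symbol, 346 of them beginning with LINC, and 1439 are known only by an Ensembl identifier. The closest members above the threshold were ENSG00000288868 at 1.00006 CPM and ENSG00000285652 at 1.00143 CPM, and the closest genes below it were ENSG00000289106 at 0.999667 CPM and ENSG00000242593 at 0.998854 CPM.

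RNA was sequenced from frozen tumours that UMUC3 cells had formed in mice. Control cells, whose sample titles carry the tag sh, and FASN knockdown (FASN KD) cells were grown before engraftment either in regular medium or in medium with 10% cigarette smoke medium (CSM). There were 3 control, 3 FASN KD, 4 control CSM and 4 FASN KD CSM libraries. FASN is the gene of fatty acid synthase, which builds palmitate from acetyl-CoA and malonyl-CoA. All 14 libraries come from 1 cell line, the labels give no knockdown reagent for the FASN KD cells, and they do not say that libraries came from separate mice. The p-values therefore measure the spread between these libraries, part of which may be technical.

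An lncRNA is transcribed, usually capped and often spliced like a messenger RNA, but holds no long open reading frame known to be translated. Some act in the nucleus on the chromosome they are made from, as KCNQ1OT1 does at an imprinted cluster. Others are mainly carriers: snoRNA host genes release small nucleolar RNAs from their introns, and microRNA host genes are processed into microRNAs. Antisense (AS) and divergent (DT) transcripts are named after the protein-coding gene that they overlap or start beside.

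The members hold 110 microRNA genes of the RefSeq table (GRCh38.p14), inside 66 of them. The microRNAs of the hosts that the results turn on are shown because hosts on different chromosomes carry the same seed, the bases 2 to 8 that pair with targets, given in capitals. MIR99AHG on chromosome 21 and MIR100HG on chromosome 11 each hold a member of the miR-99/100 seed family, a let-7 and a copy of miR-125b.
miR-99a-5p: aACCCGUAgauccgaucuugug
miR-100-5p: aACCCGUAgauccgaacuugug
let-7c-5p: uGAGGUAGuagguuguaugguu
let-7a-5p: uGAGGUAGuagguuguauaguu
miR-125b-5p: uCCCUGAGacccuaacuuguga
MIR663AHG, MIR4307HG and the unnamed gene ENSG00000271860 hold microRNAs with 3 further seeds.
miR-663a: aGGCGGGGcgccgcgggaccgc
miR-4307: aAUGUUUUuuccuguuucc
miR-2113: aUUUGUGCuuggcucugucac

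The start regions of 3 members that stood out in the comparisons are printed from the RefSeq promoter table (GRCh38.p14), which holds 872 of the 2808 members. Each covers 250 bases before the annotated start and the 50 bases from it, which are in capitals. LINC00632 fell with knockdown, and its window is chrX:140709509-140709808 on the plus strand. NECTIN3-AS1 fell too, with its window at chr3:111069910-111070209 on the minus strand. STARD4-AS1 rose with knockdown in the cells grown with CSM, with its window at chr5:111511976-111512275 on the plus strand.
LINC00632: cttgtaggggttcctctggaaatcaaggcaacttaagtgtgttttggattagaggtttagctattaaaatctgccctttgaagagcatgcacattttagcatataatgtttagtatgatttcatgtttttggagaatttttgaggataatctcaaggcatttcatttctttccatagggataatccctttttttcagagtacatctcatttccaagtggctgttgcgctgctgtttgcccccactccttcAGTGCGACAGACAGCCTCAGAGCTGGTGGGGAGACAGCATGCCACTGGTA
NECTIN3-AS1: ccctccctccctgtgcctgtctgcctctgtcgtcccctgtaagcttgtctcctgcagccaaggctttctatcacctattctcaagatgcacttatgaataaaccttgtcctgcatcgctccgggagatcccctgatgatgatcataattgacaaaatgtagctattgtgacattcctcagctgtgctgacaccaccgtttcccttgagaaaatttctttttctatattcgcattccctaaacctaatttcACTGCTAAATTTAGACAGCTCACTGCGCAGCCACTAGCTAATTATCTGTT
STARD4-AS1: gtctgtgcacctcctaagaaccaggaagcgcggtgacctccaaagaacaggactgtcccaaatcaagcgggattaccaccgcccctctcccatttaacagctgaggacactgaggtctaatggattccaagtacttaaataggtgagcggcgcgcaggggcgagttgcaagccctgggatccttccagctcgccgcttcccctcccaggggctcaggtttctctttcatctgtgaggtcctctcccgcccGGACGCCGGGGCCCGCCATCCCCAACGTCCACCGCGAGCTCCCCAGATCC
None of the 7 letter strings described with the promoters near the end is in these 3 windows.

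Library totals were 15810287 to 45209466 counts. FASN itself was at 571, 404 and 379 CPM in control and 121, 99.9 and 132 CPM in FASN KD; on the log2 scale it fell by 1.94 (SE 0.33) at an adjusted p of 0.024 by edgeR. The exact two-sided permutation p was 0.1, the smallest that 3 against 3 libraries allow. After CSM it was at 456, 479, 423 and 366 CPM in control and 220, 166, 301 and 479 CPM in FASN KD, a log2 fold change of -0.57 (SE 0.28, adjusted p = 0.288, exact permutation p = 0.114). The library labelled FASN KD CSM replicate 4 was thus within the range of its controls, against its label. Leaving out any 1 of the 6 libraries of regular medium raised the adjusted p of FASN in that medium to between 0.0549 and 0.137. The 7SL RNA, a noncoding RNA of the signal recognition particle, took 2.64% to 25.6% of counts, with FASN KD replicate 2 at 25.6% and control CSM replicate 3 at 16.3%. Human urothelial markers were largely low: 8 of 15 reached 1 CPM, KRT8 and KRT18 averaged 92.6 and 146 CPM and the uroplakin UPK3A was at 0. All 7 mesenchymal markers were expressed, and leukocyte markers were low, with 1 of 7 at 1 CPM or more. Of 5 endothelial and 7 fibroblast markers, 1 and 2 reached 1 CPM. Only human transcripts were quantified, so mouse cells of the tumours could enter these values only through reads that match human transcripts. After CSM the summed urothelial markers were at 273 to 332 CPM in control and 187 to 216 CPM in FASN KD. In regular medium they overlapped, at 241 to 291 CPM in control and 200 to 308 CPM in FASN KD. KRT8 and KRT18 made up most of this sum. The summed leukocyte markers were at 3.57 to 8.38 CPM in control CSM and 7.92 to 11.2 CPM in FASN KD CSM, and at 4.62 to 7.35 CPM in control and 5.36 to 25 CPM in FASN KD. LYZ, with a mean of 7.21 CPM, made up most of the leukocyte sum. The part of these markers in the lncRNA results was not tested.

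Most lncRNA genes were weakly expressed. The median member averaged 3.04 CPM (quartiles 1.64 and 7.01), against 22.3 CPM for the protein-coding genes tested. 33 members averaged over 100 CPM and 957 under 2 CPM. The 12 most abundant held 16% of all member CPM. Per unit of length, on the scale of transcripts per 1000000 (TPM), ENSG00000259001 ranked first at 1001 TPM; it is a 638-base gene on chromosome 14 (20343048 to 20343685, minus strand) whose span contains RPPH1, the RNA of ribonuclease P, so reads of the 2 cannot be told apart. It varied from 154 to 2729 CPM between libraries and was highest in FASN KD replicate 2 (2729 CPM) and control CSM replicate 3 (1954 CPM), the same 2 libraries that were highest in 7SL. SNHG29, a snoRNA host, was second at 515 TPM, and H19, an imprinted growth-restraining RNA, seventh at 136 TPM. HELLPAR and XACT were also among the 12 by CPM, but their levels per length were 1.95 and 1.03 TPM, ranks 1314 and 1986 of 2808. NORAD, which binds Pumilio proteins, averaged 44.4 TPM and had log2 fold changes of 0.02 with knockdown in regular medium and -0.12 after CSM, neither called.

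lncRNA genes took a larger share of the counts in FASN KD CSM than in either control group. Against FASN KD the share overlapped, as FASN KD replicate 3, at 3.57%, lay within the FASN KD CSM range. The members held 2.35%, 2.17% and 2.38% of counts in control. They held 2.02%, 1.63% and 3.57% in FASN KD. They held 2.39%, 2.15%, 1.67% and 2.20% in control CSM and 4.30%, 2.88%, 3.31% and 2.99% in FASN KD CSM. All 4 FASN KD CSM libraries lay above all 4 control CSM libraries, while in regular medium 1 FASN KD library lay above the controls and 2 below. The group means were 2.30% ± 0.113 (SD, n = 3), 2.41% ± 1.03 (SD, n = 3), 2.10% ± 0.308 (SD, n = 4) and 3.37% ± 0.644 (SD, n = 4). With 7SL taken out of the denominator the means were 2.50%, 2.74%, 2.27% and 3.53%. In tumour RNA, fewer cells that express a gene and less of its RNA per cell cannot be told apart.

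Transcripts annotated as retained introns moved with that share. They held 9.13%, 7.19%, 7.73% and 7.01% of the counts other than 7SL in FASN KD CSM and 6.35%, 5.01%, 4.35% and 5.33% in control CSM. In FASN KD they held 5.48%, 4.22% and 7.40%, again highest in replicate 3, and in control 5.90%, 5.73% and 5.91%. Transcripts of the TEC class, unspliced candidate genes, held 0.163% to 0.220% in FASN KD CSM and 0.0623% to 0.114% in control CSM. A member may include transcripts annotated as retained introns, so the lncRNA and retained-intron shares can hold the same counts. The part of unspliced or intronic RNA in the lncRNA result was not tested.

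**Figure D1:**
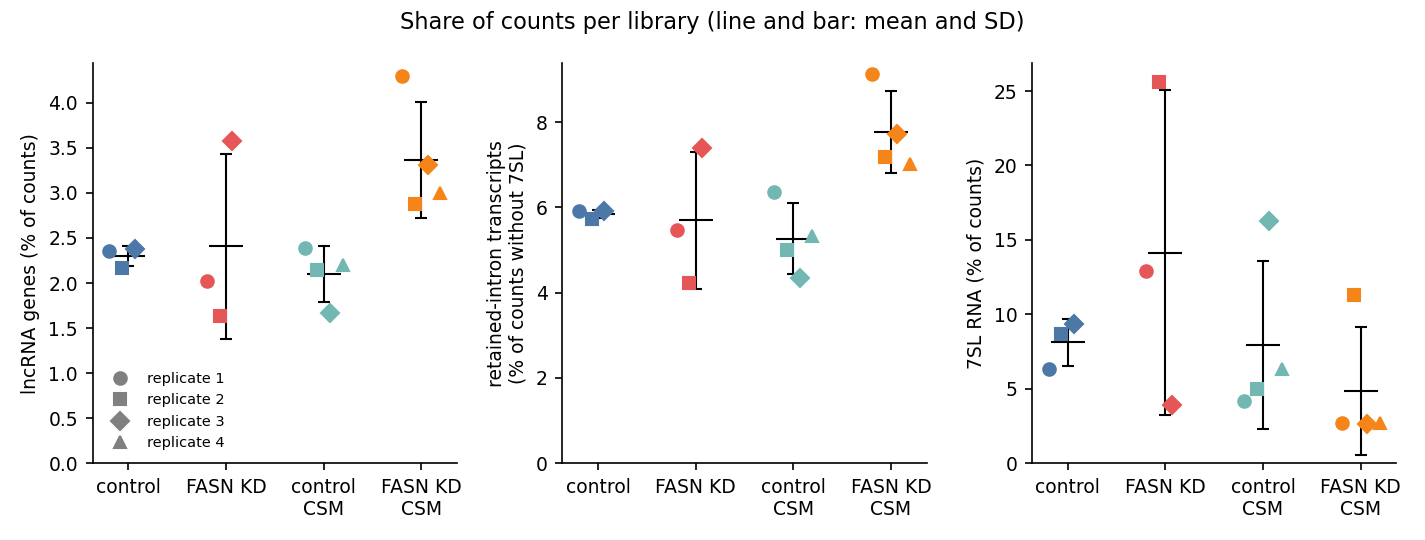
Share of counts per library in the 4 groups for the lncRNA genes (left, percent of all counts), retained-intron transcripts (middle, percent of counts without 7SL) and 7SL RNA (right, percent of all counts). Each point is 1 library, its shape the replicate number, and the line and bar are the mean and SD; the 4 FASN KD CSM libraries are at 2.88% to 4.30% lncRNA, above the 1.67% to 2.39% of control CSM.

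Knockdown was compared with control in each medium and as the mean of both effects. In regular medium few lncRNA genes passed the test. ENSG00000271860 rose, and LINC00632, STARD13-AS and ENSG00000290558 fell. That is 1 member higher and 3 lower of 2808. Over all 22560 genes tested, 0.0266% were called higher and 0.177% lower. The median member log2 fold change was 0.16, with 1678 members (59.8%) above 0, and the protein-coding median was -0.02. Groups did not overlap, with FASN KD higher, for 189 members (6.73%), against 4.8% of all genes, and with FASN KD lower for 178 (6.34%), against 7.04%. Leaving out FASN KD replicate 3, the library with the high lncRNA share, turned the member median to -0.17. Leaving out control replicate 2 or 3 left 1 call, and leaving out FASN KD replicate 2 or 3 left 2.

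After CSM many more lncRNA genes were higher in the knockdown tumours. 46 members rose, among them STARD4-AS1, MIR663AHG, MIR99AHG, KCNQ1OT1 and HIF1A-AS3, and 3 fell, ENSG00000290558, NECTIN3-AS1 and ENSG00000287097. Of the members 1.64% were called higher and 0.107% lower, where 0.43% of all genes tested were called higher and 0.74% lower. The median member log2 fold change was 0.55, with 2241 members (79.8%) above 0, and the protein-coding median was -0.16. FASN KD CSM lay wholly above control CSM for 709 members (25.2%), against 8.86% of all genes, and wholly below for 42 (1.50%), against 7.34%. Of the 46 that rose, 38 also had a positive log2 fold change in regular medium, with a median there of 0.36, beside 0.16 over all members.

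The number of calls after CSM depended on single libraries, but the shift did not. It was 6 without FASN KD CSM replicate 1 or control CSM replicate 2 and 210 without FASN KD replicate 3. It stayed within 1.5 times only without FASN KD replicate 1 (58 calls) or FASN KD CSM replicate 4 (36 calls), the library whose FASN level went against its label. The member median was 0.46 to 0.67 in all 14 of these fits.

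**Figure D2:**
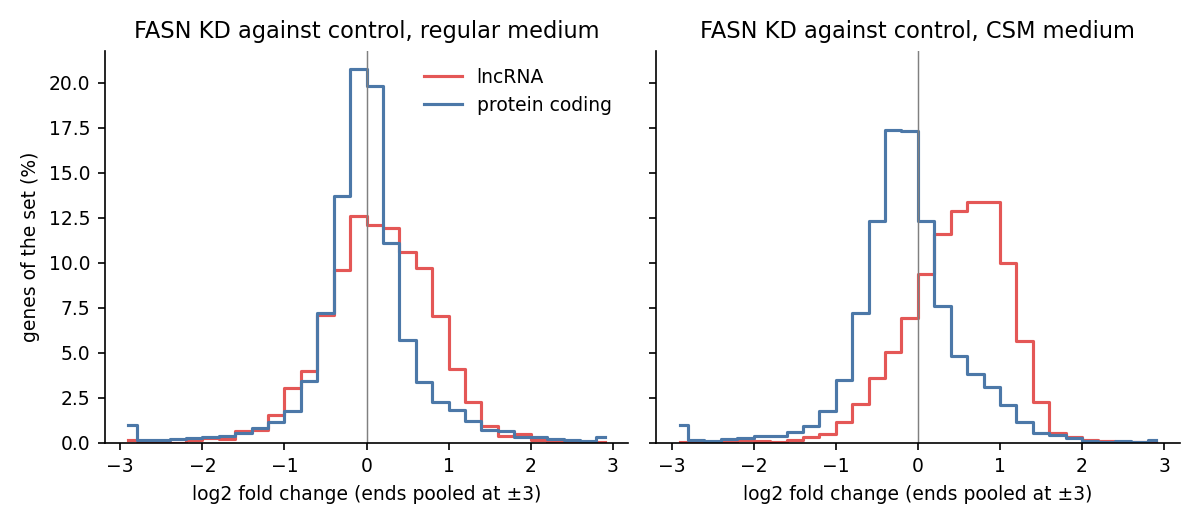
Distribution of log2 fold changes of FASN KD against control in regular medium (left) and after CSM (right), as percent of the genes of each set, for 2808 lncRNA genes and 14519 protein-coding genes; values beyond 3 in size are pooled in the end bins. The lncRNA curve lies to the right of the protein-coding curve after CSM, with medians of 0.55 and -0.16.

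As the mean over both media, 133 members rose and 14 fell. These are 4.74% and 0.499% of the members, where 1.54% and 1.98% of all genes tested were called higher and lower. The median member log2 fold change was 0.34, with a range of 0.16 to 0.42 over the fits that left out 1 library; 0.16 was without FASN KD replicate 3. Of the 147 members called, 4 were also called in regular medium and 29 after CSM. Between them the 3 comparisons called 167 members, and 2 were called in each medium separately, ENSG00000290558 and ENSG00000271860. The number of calls for the mean fell to 18 without control replicate 2 and rose to 257 without FASN KD replicate 1. It stayed within 1.5 times only without FASN KD replicate 2 (137 calls), FASN KD CSM replicate 4 (118) or control CSM replicate 1 (124).

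Of 49 calls on named members, 13 held whichever 1 library was left out and none changed direction. They are the calls for the mean on ENSG00000290558, STARD13-AS, LINC00632, ENSG00000271860, NECTIN3-AS1, ENSG00000276900, LINC02450, ENSG00000288105, ZNF710-AS1 and HIF1A-AS3, those on ENSG00000290558 and MIR663AHG after CSM, and that on STARD13-AS in regular medium. Of these 13 calls, 10 were lost with limma on log2(TPM + 1), that on MIR663AHG also with the replicate number as a block, and that on HIF1A-AS3 also with the block and without the 2 libraries over 15% 7SL. Adding 1 TPM shrinks the changes of weakly expressed genes, so limma was not a like test for them. The calls for the mean on ENSG00000290558, ENSG00000271860 and NECTIN3-AS1 were lost under no alternative run. However, ENSG00000290558 and NECTIN3-AS1 reached the mean of 1 CPM only through control libraries, and ENSG00000271860 only through knockdown libraries. STARD13-AS was also mostly under 1 CPM in knockdown libraries, and STARD4-AS1 mostly under 1 CPM in control libraries. The level rule thus admitted these genes through the groups in which they are high. The same may hold for other members near 1 CPM. The other 36 calls were lost without at least 1 library, with adjusted p-values that then reached 0.0548 to 0.206. The library whose removal raised the adjusted p most was control replicate 2 for 16 of them.

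**Figure D3:**
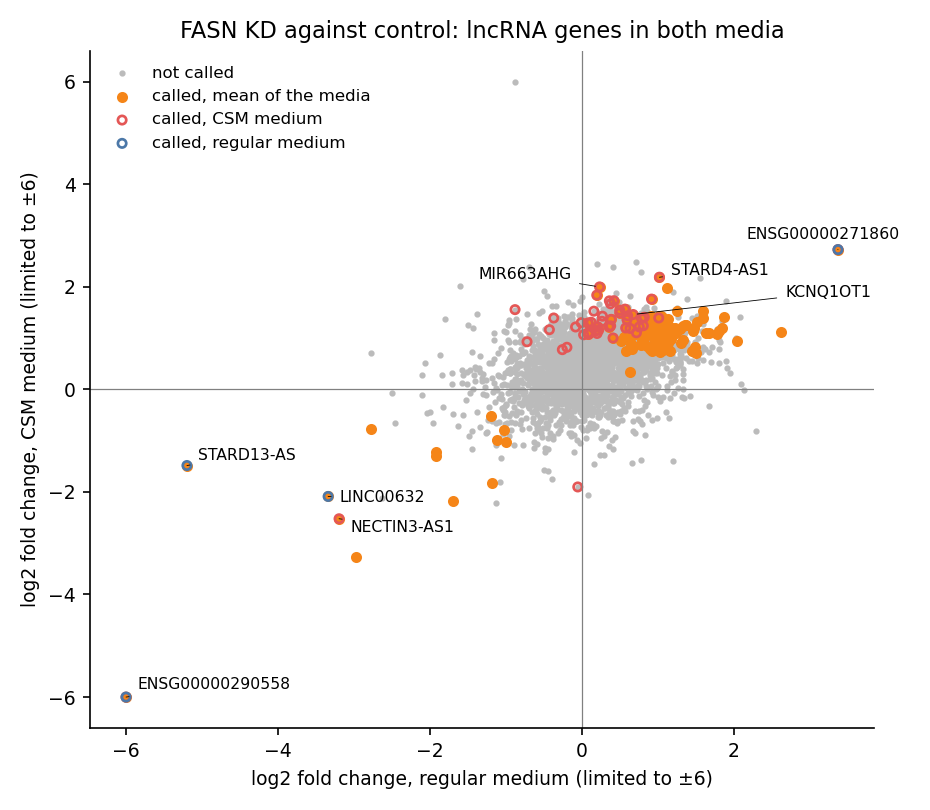
Log2 fold change of FASN KD against control in regular medium (x axis) and after CSM (y axis) for the lncRNA genes, both limited to 6 in size. Grey points were not called, filled points were called for the mean of the media, and open points in 1 medium. STARD13-AS, LINC00632, NECTIN3-AS1 and ENSG00000290558 lie at lower left and ENSG00000271860 at upper right.

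LINC00632 had the largest fall among called members averaging over 10 CPM. It is the gene on chromosome X (140709562 to 140793215, plus strand, up to 6 exons) that overlaps CDR1 antisense and from whose transcript the circular RNA CDR1as is made; counts here are for the gene and not for the circle. Its levels were 425, 220 and 270 CPM in control and 20.5, 18.7 and 51.0 CPM in FASN KD. After CSM they were 432, 159, 152 and 108 CPM in control and 33.6, 27.4, 32.6 and 106 CPM in FASN KD. The groups did not overlap in either medium, but the highest FASN KD CSM library, replicate 4, lay just under the lowest control, also replicate 4. On the log2 scale the change was -3.34 (SE 0.63, adjusted p = 0.043) in regular medium, -2.09 (SE 0.52, adjusted p = 0.064) after CSM and -2.71 (SE 0.41, adjusted p = 0.0021) for the mean. The call in regular medium was lost when 11 of the 14 libraries were left out in turn, and most clearly so without FASN KD replicate 2 (adjusted p = 0.206). The call for the mean held in all 14 fits. The SPANX genes, cancer-testis genes of a near-identical family whose reads the counting may split, lie next to it on chromosome X. SPANXB1 (141002591 to 141003706) averaged 31.8 CPM in control and 0.294 CPM in FASN KD, with log2 fold changes of -6.79 (adjusted p = 0.0039) in regular medium and -6.15 (adjusted p = 0.00074) after CSM.

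STARD13-AS lies on chromosome 13 (33180401 to 33281584, plus strand), antisense to STARD13. It was at 9.97, 5.38 and 2.34 CPM in control and 0.245, 0.0847 and 0.116 CPM in FASN KD. After CSM it was at 3.47, 2.02, 2.89 and 3.97 CPM in control and 0.769, 0.752, 0.982 and 1.87 CPM in FASN KD. The groups were apart in both media, more widely in regular medium. Most of its knockdown libraries were under 1 CPM, so STARD13-AS met the level rule through the controls. The log2 fold change was -5.20 (SE 0.66, adjusted p = 0.0026) in regular medium and -1.49 (SE 0.46, adjusted p = 0.11) after CSM, and the difference between the 2, 3.71, did not pass the test (adjusted p = 0.94). STARD13 itself was not called, at log2 fold changes of -0.47 and -0.46. The counting is not stated to use strand, so here and for every overlapping pair, reads of a gene and its antisense partner cannot be told apart.

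NECTIN3-AS1 lies on chromosome 3 (110893708 to 111071553, minus strand), antisense to NECTIN3, which encodes a cell adhesion protein. It was at 5.97, 6.06 and 3.55 CPM in control and 0.596, 0 and 0.961 CPM in FASN KD. After CSM it was at 2.92, 3.43, 4.45 and 3.75 CPM in control and 0.680, 0.786, 0.365 and 0.691 CPM in FASN KD. All control libraries were above all knockdown libraries. The log2 fold change was -3.19 (SE 0.65, adjusted p = 0.066) in regular medium, -2.52 (SE 0.55, adjusted p = 0.040) after CSM and -2.86 (SE 0.43, adjusted p = 0.0019) for the mean. Leaving out 1 library ended the call after CSM in 11 of 14 cases (adjusted p at most 0.122) and the call for the mean in none. NECTIN3 had log2 fold changes of -0.31 and -0.44, neither called.

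ENSG00000290558 was detected in every control library and in no knockdown library. It was at 1.40, 1.94 and 2.63 CPM in control and at 1.97, 4.61, 1.79 and 1.13 CPM in control CSM, with 231 and 338 counts in all. With a floor of 3 counts over a group, FASN KD was at least 48.9-fold lower in regular medium (adjusted p = 0.017) and at least 114-fold lower after CSM (adjusted p = 0.0017). The gene is not in the GENCODE 29 annotation, so no position is given. The call in regular medium was lost without control replicate 2 (adjusted p = 0.071), control replicate 3 or FASN KD replicate 3.

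ENSG00000271860 went the other way. This intergenic gene of chromosome 6 (97283303 to 98399872, plus strand) holds miR-2113, printed near the opening. It was at 0.475, 0.169 and 0.210 CPM in control and 3.64, 4.07 and 1.40 CPM in FASN KD. After CSM it was at 0.260, 0.634, 0.312 and 0.626 CPM in control and 4.23, 3.11, 3.03 and 1.85 CPM in FASN KD. The groups did not overlap in either medium. The log2 fold change was 3.37 (SE 0.59, adjusted p = 0.029) in regular medium, 2.72 (SE 0.50, adjusted p = 0.016) after CSM and 3.05 (SE 0.39, adjusted p = 0.00058) for the mean. Without control replicate 2 the adjusted p in regular medium was 0.186.

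**Figure D4:**
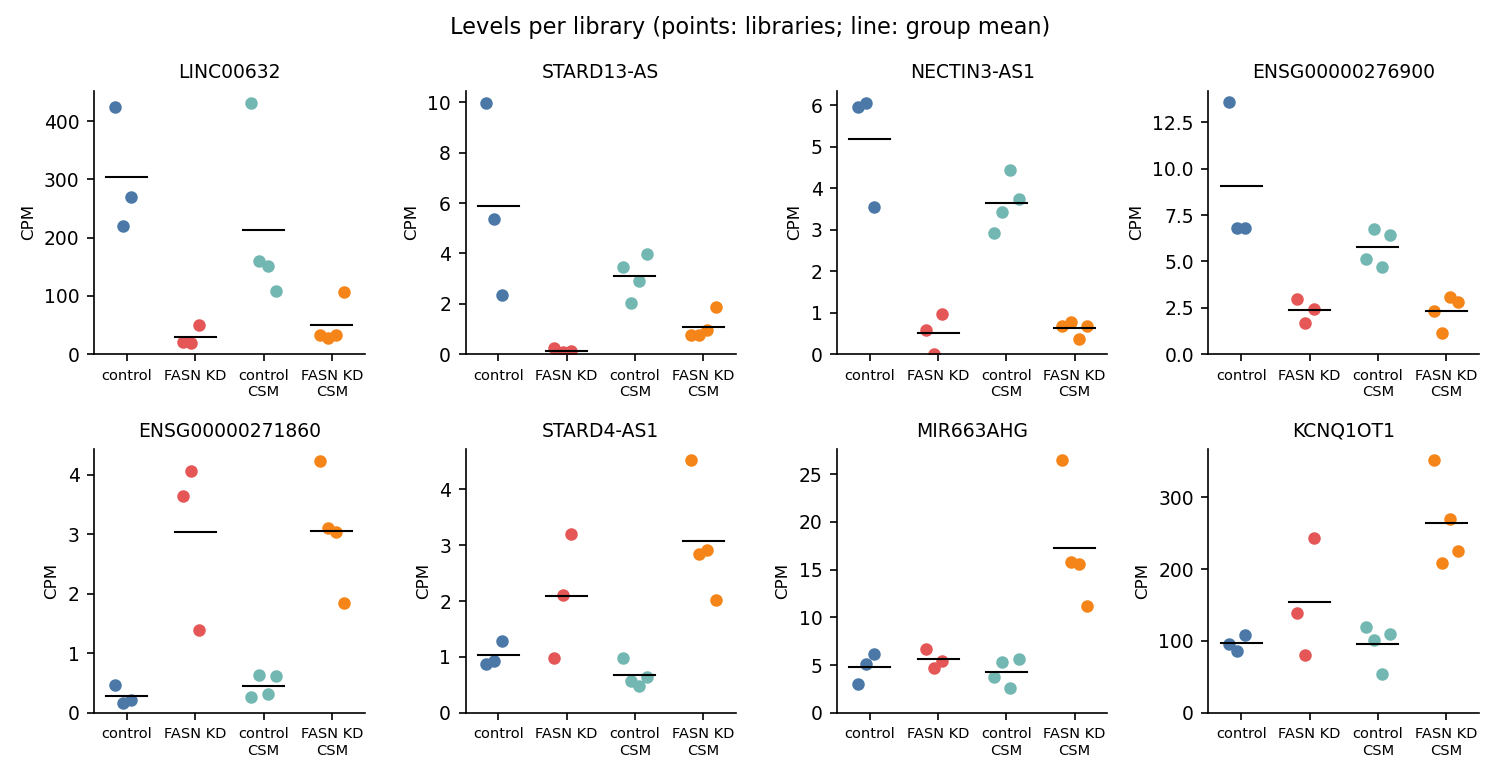
Level in CPM of 8 lncRNA genes in each library, by group; points are libraries and lines group means. The 4 genes of the upper row are lower in both knockdown groups, and MIR663AHG is at 11.2 to 26.4 CPM in FASN KD CSM and at most 6.69 CPM elsewhere.

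Of the other falls for the mean, ENSG00000276900, antisense to AMN1 on chromosome 12 (31729117 to 31731204, plus strand), was at 13.6, 6.79 and 6.79 CPM in control and 2.98, 1.69 and 2.42 CPM in FASN KD. After CSM it was at 5.15, 6.74, 4.71 and 6.45 CPM in control and 2.31, 1.16, 3.09 and 2.83 CPM in FASN KD. Its groups did not overlap in either medium, and the mean log2 fold change was -1.61 (SE 0.27, adjusted p = 0.0042). ENSG00000293062, SNTG2-AS1, LINC01224, LINC02582 and PRKAG2-AS1 fell with mean log2 fold changes of -3.13, -1.94, -1.77, -1.57 and -1.51. PRKAG2-AS1 is antisense to PRKAG2, a regulatory subunit of the AMP-activated kinase. The largest rises for the mean after ENSG00000271860 were ENSG00000260179 at 1.87, LINC02450 at 1.65 (adjusted p = 0.0034), STARD4-AS1 at 1.60, LINC00499 at 1.56, ENSG00000286475 at 1.55, PAQR9-AS1 at 1.52, LINC01550 at 1.50, ENSG00000288105 at 1.50 (adjusted p = 0.0078) and ZNF710-AS1 at 1.47 (adjusted p = 0.0071). LINC02450 was at 0.930 to 1.42 CPM in control and 2.97 to 6.43 CPM in FASN KD. It was at 1.82 to 2.98 CPM in control CSM and 3.84 to 8.84 CPM in FASN KD CSM.

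Among the members that rose with knockdown after CSM, STARD4-AS1 had the largest change after ENSG00000271860. It lies on chromosome 5 (111512226 to 111739726, plus strand) across the start of STARD4, which encodes a sterol transfer protein. It was at 0.983, 0.576, 0.482 and 0.650 CPM in control CSM and 4.52, 2.84, 2.92 and 2.01 CPM in FASN KD CSM, and in regular medium at 0.882, 0.930 and 1.29 CPM in control and 0.981, 2.12 and 3.20 CPM in FASN KD. The groups were apart after CSM and overlapped in regular medium. It rose by 2.18 on the log2 scale after CSM (SE 0.43, adjusted p = 0.024), a call that was lost without 5 of the 14 libraries in turn. Most of its control libraries were under 1 CPM, so STARD4-AS1 met the level rule through the knockdown libraries. STARD4 had log2 fold changes of 0.43 and 0.92, neither called.

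MIR663AHG, the host of miR-663a on chromosome 20 (26186920 to 26251526, minus strand), was at 3.76, 5.30, 2.58 and 5.63 CPM in control CSM and 26.4, 15.8, 15.6 and 11.2 CPM in FASN KD CSM. In regular medium it was at 2.96, 5.16 and 6.16 CPM in control and 6.69, 4.66 and 5.38 CPM in FASN KD. FASN KD CSM stood apart from the other 3 groups, which overlapped each other. The log2 fold change was 2.00 (SE 0.34, adjusted p = 0.010) after CSM and 0.24 (SE 0.38, adjusted p = 0.94) in regular medium. The difference between the media, 1.76, did not pass the test (adjusted p = 0.94). The call after CSM held in all 14 fits without 1 library, and was lost with the replicate number as a block and with limma.

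Another 7 members were among the 10 largest rises after CSM. LINC02615 rose by 1.84 on the log2 scale, LINC02241 by 1.76, ENSG00000269707 by 1.73, ENSG00000290999 by 1.72, LINC02078 by 1.67, CELF2-DT by 1.56 and ENSG00000261786 by 1.55, with adjusted p between 0.016 and 0.049. LINC02615 was at 1.07, 1.35, 1.33 and 0.746 CPM in control CSM and 3.16, 4.27, 4.01 and 4.63 CPM in FASN KD CSM. Its libraries in regular medium, at 1.04 to 2.08 CPM, overlapped control CSM and lay below FASN KD CSM. ENSG00000287097 fell by 1.90 on the log2 scale after CSM (SE 0.43, adjusted p = 0.047), from 1.28 to 1.88 CPM in control CSM to 0.148 to 0.610 CPM in FASN KD CSM, and had a log2 fold change of -0.05 in regular medium.

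Lists of lncRNAs by function were set against these values. None of the 12 lists had a member called in regular medium, where 0.142% of all members were called. None had a member called lower in any knockdown comparison. There 0.107% to 0.499% of all members and 0.177% to 1.98% of all genes tested were called lower. At the shares of the members, lists of these sizes would mostly hold no such call. The 28 snoRNA host genes mostly had negative values in regular medium. There 24 of 28 had a negative log2 fold change, with a median of -0.38, beside 0.02 over all genes tested and 0.16 over all members. After CSM 15 of 28 were negative with a median of -0.05, beside 0.01 over all genes tested and 0.55 over all members; upper-quartile scaling, under which the median of all genes was 0.16, gave a list median of 0.11. SNHG14, which carries the SNORD115 and SNORD116 clusters and is imprinted, was the 1 host called, higher for the mean at 0.79 (adjusted p = 0.040). For the mean, 4.74% of all members and 1.54% of all genes tested were called higher. SNHG29 was at 801, 610, 1018 and 611 CPM in control CSM and 329, 375, 402 and 507 CPM in FASN KD CSM, without overlap, at a log2 fold change of -0.91 (adjusted p = 0.11).

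Many snoRNA hosts are known as 5' terminal oligopyrimidine genes, which start in a run of C and T. Of the 25 hosts in the promoter table, 10 (40%) had 6 or more C or T in a row at or within 2 bases of the annotated start, as did 16.6% of all 27305 promoters. The 40 bases around the start are shown for 4 hosts with such a run, in capitals, and for SNHG29, which had none by this count.
ZFAS1: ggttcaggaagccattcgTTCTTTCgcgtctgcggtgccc
SNHG5: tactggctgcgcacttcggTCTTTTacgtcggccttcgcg
SNHG12: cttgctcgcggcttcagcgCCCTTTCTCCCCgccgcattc
SNHG32: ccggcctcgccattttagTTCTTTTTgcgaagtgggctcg
SNHG29: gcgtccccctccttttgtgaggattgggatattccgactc

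The 40 microRNA host genes had medians of -0.23 in regular medium and 0.43 after CSM, and 3 rose with knockdown after CSM. In that comparison 1.64% of all members and 0.43% of all genes tested were called higher. The 3 hosts were MIR663AHG, MIR4307HG at 1.52 (adjusted p = 0.040) and MIR99AHG at 1.42 (adjusted p = 0.048), the last named after its value was seen. MIR100HG, which shares its 3 seeds with MIR99AHG, was at 251, 239 and 185 CPM in control and 162, 73.8 and 36.3 CPM in FASN KD. After CSM it was at 119, 163, 178 and 187 CPM in control and 113, 176, 238 and 226 CPM in FASN KD. FASN KD lay below control in regular medium and overlapped it after CSM, at log2 fold changes of -1.31 (adjusted p = 0.32) and 0.22 (adjusted p = 0.76), neither called. Levels of the mature microRNAs were not measured here.

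The 9 imprinted and X-inactivation centre transcripts had all 9 log2 fold changes above 0 after CSM, with a median of 1.07 beside 0.55 over all members. In regular medium 8 of 9 were above 0, with a median of 0.56 that fell to 0.10 without FASN KD replicate 3. KCNQ1OT1, which silences the imprinted genes around KCNQ1 (chromosome 11, 2608328 to 2699994, minus strand, 1 exon), was at 119, 102, 53.8 and 110 CPM in control CSM and 352, 209, 270 and 226 CPM in FASN KD CSM. In regular medium it was at 96.2, 85.7 and 108 CPM in control and 140, 79.8 and 244 CPM in FASN KD. The groups were apart after CSM and overlapped in regular medium. It rose by 1.46 after CSM (SE 0.32, adjusted p = 0.041) and by 1.07 for the mean (SE 0.24, adjusted p = 0.027). Leaving out 1 library ended the call after CSM in 11 of 14 cases (adjusted p at most 0.127). MEG8, of the imprinted DLK1 to DIO3 region, rose for the mean at 0.98 (adjusted p = 0.019). Of the 9, 1 was called higher after CSM and 3, with SNHG14, for the mean. Of all members, 1.64% and 4.74% were called higher in these comparisons, and of all genes tested 0.43% and 1.54%. H19 varied within groups, from 21.8 to 357 CPM in control and 24.8 to 600 CPM in FASN KD CSM, and was not called.

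Among 7 hypoxia and stress transcripts HIF1A-AS3 was the 1 called, after CSM and for the mean. Of all members, 1.64% and 4.74% were called higher in these comparisons, and of all genes tested 0.43% and 1.54%. HIF1A-AS3 lies antisense to HIF1A, the oxygen-regulated transcription factor subunit, on chromosome 14 (61715558 to 61751097, minus strand). It was at 23.0, 22.6, 20.4 and 23.3 CPM in control CSM and 70.0, 53.4, 35.9 and 32.6 CPM in FASN KD CSM. In regular medium it was at 18.2, 30.0 and 29.8 CPM in control and 34.5, 45.7 and 48.1 CPM in FASN KD, so the groups were apart in both media. It rose by 1.10 after CSM (SE 0.25, adjusted p = 0.046) and by 0.91 for the mean (SE 0.19, adjusted p = 0.018). HIF1A had log2 fold changes of 0.21 and -0.11.

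Of 16 bladder cancer-linked transcripts, LINC00958 and ELF3-AS1 rose for the mean, by 0.49 (adjusted p = 0.033) and 0.86 (adjusted p = 0.025). For the mean, 4.74% of all members and 1.54% of all genes tested were called higher. LINC00958 was at 51.5 to 60.8 CPM in control and 78.8 to 91.4 CPM in FASN KD, and at 57.8 to 71.3 CPM in control CSM and 72.1 to 91.1 CPM in FASN KD CSM. CYTOR, of the same list and of the mesenchymal list, had a mean log2 fold change of -0.64 (adjusted p = 0.072). OLMALINC, which is in none of the lists, was called higher for the mean. Its log2 fold change was 0.65 to 1.09 when 1 library was left out, and the call was lost in 10 of those 14 fits. No member of the 10 mesenchymal, 12 interferon and immune, 5 HOX cluster, 4 lipid and sterol, 4 p53-linked or 2 smoke-linked transcripts was called. These counts cover only the genes listed. Their medians in regular medium and after CSM were -0.04 and -0.14, -0.05 and 0.34, -0.57 and -0.43, -0.23 and 0.11, 0.05 and 0.45, and -1.15 and 0.37. The signs of several of these medians depended on single libraries. In regular medium, leaving out 1 library gave the p53-linked median values from -0.53 to 0.32, the mesenchymal median -0.25 to 0.18 and the interferon and immune median -0.15 to 0.07. The lipid and sterol median after CSM lay between -0.12 and 0.18 in the same way. With upper-quartile scaling the mesenchymal medians became 0.03 and 0.02, and the interferon and immune median in regular medium 0.03. LUCAT1, a smoke- and stress-linked RNA, was at 59.2, 45.4 and 16.6 CPM in control and 15.1, 7.29 and 7.74 CPM in FASN KD, a log2 fold change of -2.0 (adjusted p = 0.28). The 6 nuclear organisation transcripts had medians of -0.18 and 0.45, with KCNQ1OT1 called after CSM and, with SNHG14, for the mean. Both genes are also in the imprinted list. After CSM 1.64% of all members and 0.43% of all genes tested were called higher, and for the mean 4.74% and 1.54%.

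**Figure D5:**
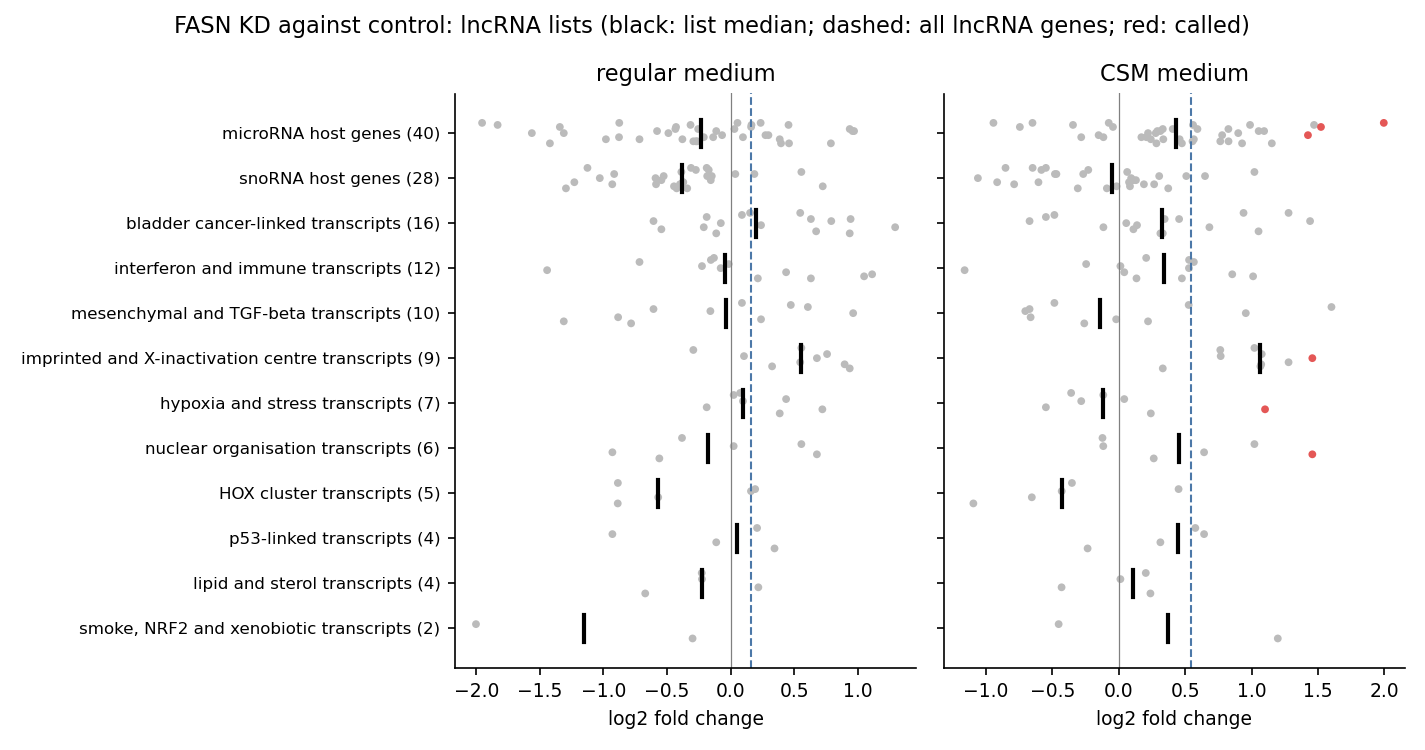
Log2 fold change of FASN KD against control in regular medium (left) and after CSM (right) for the members of 12 lncRNA lists, with the number of members in brackets. Each point is a gene, red where called; black bars are list medians and the dashed line the median of all lncRNA genes. The snoRNA hosts have medians of -0.38 and -0.05 and the imprinted and X-inactivation centre transcripts of 0.56 and 1.07.

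CSM itself was compared with regular medium in each kind of cell. With edgeR no member was called in control cells or in FASN KD cells, and over all genes tested 0% and 0% were called. In control cells 30 members had an unadjusted p under 0.05, where 1.4% of all genes had; DESeq2 called 1 member, where it called 0.0267% of all genes. In FASN KD cells 364 members had an unadjusted p under 0.05, of which 332 were higher after CSM, where 6.67% of all genes had one; DESeq2 called 21 members, where it called 0.231% of all genes. The median member log2 fold change was -0.08 in control cells and 0.25 in FASN KD cells, and the second was 0.65 without FASN KD replicate 3, 0.14 without the 2 libraries over 15% 7SL and 0.06 with the 7SL share as a covariate.

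The difference between the 2 knockdown effects was tested as an interaction, and no lncRNA gene was called by edgeR, as for 0% of all genes. There were 254 members with an unadjusted p under 0.05, 238 of them with a more positive effect after CSM, against 5.22% of all genes. DESeq2 called 5 members, where it called 0.0311% of all genes. The median member difference was 0.33, with a range of 0.19 to 0.72 when 1 library was left out; 0.72 was without FASN KD replicate 3. With no filter on low counts edgeR called 13, and the median was 0.20 with the 7SL share as a covariate and 0.17 without the 2 libraries over 15% 7SL.

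Antisense, divergent and intronic lncRNAs were set beside the protein-coding gene in their names. There were 598 such pairs with both genes tested. After CSM the lncRNA median was 0.40 and the partner median -0.18, and the sign was shared in 292 of 598 pairs. Across pairs the log2 fold changes had a Pearson r of 0.07 in regular medium and 0.13 after CSM, as a description over genes from the same libraries. For the mean 30 lncRNAs (5.02%) and 20 partners (3.34%) were called, where 5.24% of all members and 4.08% of all protein-coding genes were. Both genes were called in 3 pairs, named after their values were seen. TRHDE-AS1 and TRHDE rose by 1.02 and 0.83, and PKD2L2-DT and PKD2L2 by 0.98 and 1.23, on the log2 scale. ARHGAP44-AS1 rose by 1.09 and ARHGAP44 fell by 1.55.

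The shift with knockdown after CSM was seen in every positional class of lncRNA gene. The median log2 fold change was 0.60 for 971 intergenic members, 0.47 for 790 that overlap a gene antisense, 0.64 for 310 that overlap one on the same strand and 0.51 for 737 that are not in GENCODE 29. It was 0.43 for members with a symbol and 0.64 for those with an Ensembl identifier only. Members with a longest transcript of up to 1000 bases had a median of 0.45 and the 40 over 10000 bases one of 0.86. Protein-coding genes of the same length classes had medians of -0.52 and 0.06. Other noncoding classes were as high: the median was 0.75 for 409 TEC genes, 0.85 for 722 processed pseudogenes and 0.51 for 3224 lncRNA genes under 1 CPM. The classes were not tested against each other. Of 117 members called for the mean and with a position in GENCODE 29, 40 (34.2%) had another gene called for the mean within 500 kb, as did 32.5% of all genes tested with a position.

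The promoter windows of the 872 members in the table were searched on both strands for 7 letter strings. The hypoxia response core ACGTG was in 25.1% of member windows and 21.6% of all 27305, and GCGTG of the aryl hydrocarbon receptor, a sensor of smoke compounds, in 41.9% and 36.3%. TGANNNNGC of the antioxidant response was in 46.8% and 42.1%, and the cAMP response element TGACGTCA in 3.21% and 1.98%. CACGTG, which holds ACGTG, was in 6.88% and 7.43%, the TATA core TATAAA in 9.75% and 12.0%, and TCACNCCAC of the sterol response in 0.917% and 1.15%. The windows of protein-coding genes held ACGTG in 23.8%, GCGTG in 44.3%, TGANNNNGC in 42.7% and TGACGTCA in 2.66%. They held CACGTG in 8.88%, TATAAA in 9.62% and TCACNCCAC in 1.17%. The windows of members had a median of 61.3% G and C and 20 CG pairs. Those of the 42 members called higher for the mean had 54.8% and 8 CG pairs, and those of the 9 called lower 48.0% and 7. Protein-coding windows had 63.0% and 22. A match of letters is a description of these windows and not a binding site.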

How the data were processed

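Human transcripts were quantified in 14 UMUC3 xenograft libraries; per the labels' protocols, RNA was isolated from frozen tissue and adapters were ligated after addition of an adenosine to 3' ends. The submitters' processing notes name FastQC, cutadapt, Salmon and GRCh38, without versions or roles; whether counting used strand is not given in the sources used here. Per transcript, the authors deposited Salmon's estimated counts and TPM, with type and gene in the transcript name.

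Expected counts were summed per gene and rounded. edgeR 4.0.16 in R 4.3.3 fitted 1 coefficient per group to all 14 libraries (quasi-likelihood F test, TMM scaling, filterByExpr with a minimum count of 10 and minimum total of 15, 10 residual degrees of freedom), with Benjamini-Hochberg adjustment over 22560 genes; genes below an adjusted p of 0.05 are called. All 2808 members were tested. Levels are CPM on TMM-scaled totals and fold changes are fitted log2 values. The biological coefficient of variation was 0.444, which sets the precision more than depth does, except where a library holds only a few counts of a gene. FASN was also tested with an exact permutation test (scipy 1.17.1). limma 3.58.1, on log2(TPM + 1), and DESeq2 1.42.0 were alternatives. The limma run had no TMM scaling, and adding 1 TPM shrinks changes of weakly expressed genes. Its values are thus not on the edgeR scale. The replicate numbers are not stated to mark a shared animal or batch, and the libraries were fitted as unpaired.

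Positions are from GENCODE 29 (GRCh38), which holds 2071 members, and sequences from the RefSeq tables (GRCh38.p14). The scripts were tested on simulated data. Named genes are the 12 of highest mean CPM, the 10 largest called rises and falls per comparison, up to 2 called members per list or else the one with the smallest p, and protein-coding partners. The members and lists were chosen with earlier results of these data known. Items withheld from the files or left out by name are not reported here.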

Additional observations from a re-analysis of the deposited data

Results flagged for a closer look

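In groups of 4 libraries, single libraries that stood far from the other 3 were looked for over 130 groups. These covered named members, FASN and the lncRNA share. The search found 13, all for named members. Its cutoff flags about 1 group in 20 for independent, normally distributed values. CPM of genes from the same libraries are not independent, so the number due to chance is not known here. In control CSM replicate 1, LINC00632 was at 432 CPM (108 to 159 in the others) and LUCAT1 at 73.5 CPM (19.6 to 27.4). In control CSM replicate 2, HCG11 was at 3.4 CPM (1.67 to 1.94). In control CSM replicate 3, which had 16.3% 7SL, ENSG00000242588 was at 72.9 CPM (173 to 190), PRKAG2-AS1 at 3.74 CPM (1.52 to 1.81), MIR4280HG at 6.41 CPM (4.47 to 4.79) and CYTOR at 91.2 CPM (71.3 to 74.0). In control CSM replicate 4, LINC02582 was at 1.76 CPM (6.89 to 7.55).

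In FASN KD CSM replicate 1, OLMALINC was at 542 CPM (252 to 299). In replicate 2 of that group, ENSG00000293062 was at 1.03 CPM (0.0203 to 0.112) and HCG11 at 3.73 CPM (4.12 to 4.14). In replicate 3, PAQR9-AS1 was at 3.28 CPM (1.81 to 1.97). In replicate 4, the library whose FASN level went against its label, LINC00632 was at 106 CPM (27.4 to 33.6).

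The knockdown effect on ENSG00000261786 had opposite signs in the 2 media, with no overlap of libraries in either. It was at 3.05, 2.90 and 2.26 CPM in control and 1.93, 0.932 and 1.54 CPM in FASN KD, and at 2.28, 1.84, 1.25 and 2.62 CPM in control CSM and 5.74, 3.21, 6.68 and 7.87 CPM in FASN KD CSM. The difference of the log2 fold changes was 2.43, which did not pass the interaction test (edgeR adjusted p = 0.94). The groups were apart in opposite directions in the 2 media for 15 of the 2808 members (0.534%), where 0.208% of all genes tested had such groups.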

How the results depend on the processing

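No call on a named member changed direction under any alternative that gave a value, but the member median in regular medium was -0.17 without FASN KD replicate 3 and -0.02 with limma. Medians of lists changed sign too. With upper-quartile factors those of the mesenchymal list (0.03 in regular medium, 0.02 after CSM), the interferon list (0.03 in regular medium) and the snoRNA hosts and hypoxia list after CSM (0.11 and 0.04) turned positive. Between left-out libraries the signs differed after CSM for the snoRNA hosts (-0.22 to 0.07), the lipid list (-0.12 to 0.18) and the hypoxia list (-0.18 to 0.02), and in regular medium for the p53-linked (-0.53 to 0.32), mesenchymal (-0.25 to 0.18), interferon (-0.15 to 0.07) and hypoxia (-0.02 to 0.41) lists. The numbers of called lncRNA genes, 4 in regular medium, 49 after CSM and 147 for the mean of both, moved with most settings. DESeq2 called 39, 367 and 458, and included all of the reported calls. With no filter on low counts they were 30, 209 and 256, and in the CSM comparisons and the interaction 5 (control cells), 30 (FASN KD cells) and 13, where DESeq2 called 1, 21 and 5. The share of 7SL as a covariate gave 9 and 263 in regular medium and for the mean. Without the 2 libraries over 15% 7SL they were 1, 15 and 56, and limma on log2(TPM + 1) called 0, 3 and 4. In regular medium and after CSM, a filter of at least 2 CPM in 3 libraries gave 2 and 91, and a fit of only the groups compared 2 and 107. Upper-quartile factors gave 79 after CSM, and a log2 fold change of at least 1 left 88 for the mean. The cause of these moves was not tested. For the knockdown comparisons, shares over all genes are not given under these settings or in the fits without 1 library. These counts therefore show how the number of calls moved, and not whether lncRNA genes differed from other genes.

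Left-out libraries gave 1 to 5 calls in regular medium, 6 to 210 after CSM and 18 to 257 for the mean. The member median of CSM against regular medium in FASN KD cells was 0.12 to 0.65, and that of the interaction 0.19 to 0.72; limma gave 0.65 and 0.68, and the 7SL share as a covariate 0.06 and 0.20. The log2 fold change of FASN in regular medium was -2.07 to -1.73. The control share of counts was 2.50% without 7SL and 2.62% of lncRNA and protein-coding counts only.

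Same-numbered libraries were treated as unpaired. Over 19 pairs, deviations from group means correlated at -0.36 to 0.31, and 5 pairs were over 0.1. Of 14 libraries, 1 correlated best with its own number. These correlations cannot exclude a batch shared by same-numbered libraries. With the replicate number as a block, 1, 3 and 20 members were called in the 3 knockdown comparisons. Depth limits the members under 2 CPM most, 957 of 2808, and no interval for single counts is given.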

Other observations

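Several of the most abundant lncRNA genes by CPM were apart between the groups after CSM but missed the threshold. HELLPAR was at 343, 310, 325 and 389 CPM in control CSM and 1046, 777, 579 and 494 CPM in FASN KD CSM (log2 fold change 1.08, edgeR adjusted p = 0.051). XACT was at 295, 259, 250 and 353 CPM in control CSM and 976, 663, 500 and 412 CPM in FASN KD CSM (1.14, adjusted p = 0.054). In regular medium their log2 fold changes were -0.08 and 0.19.

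LINC-PINT, a p53-linked RNA, was at 157, 157 and 135 CPM in control and 117, 46.5 and 72.5 CPM in FASN KD. It was at 133, 99.0, 81.1 and 102 CPM in control CSM and 119, 137, 168 and 224 CPM in FASN KD CSM. The log2 fold changes were -0.93 and 0.64, neither called, and their difference of 1.57 did not pass the interaction test (adjusted p = 0.94).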
